A study of Mus musculus with 2 samples.

Results

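A set of 10 genes that mark or instruct macrophages of the fetus was followed on the arrays: the growth factor receptor gene Csf1r and its ligand gene Csf1, the transcription factor gene Spi1, and the genes Adgre1, Mrc1, Cd163, Lyve1, Cd68, Aif1 and Stab1, which encode proteins of the macrophage surface, lysosome and cytoplasm. They were chosen by name, with earlier results of these data known. Their probe sets are those that the array annotation assigns to these symbols. All 10 were found, with 16 probe sets among the 34958 that pair with 1 symbol and among 18194 genes in all. The RNA came from whole wild-type mouse embryos at stage E14.5 (embryonic day), which carried no mutation or treatment, and was hybridised to 2 duplicate Affymetrix expression arrays, called array 1 and array 2. The strain of these embryos (NMRI or C57/BL6) and whether the duplicates came from separate embryos are not given in the sources used here, so the spread between the arrays may be technical. There was 1 condition, and no groups were compared.

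Macrophages are phagocytes that enter the embryo from the yolk sac and later from the fetal liver, and settle in nearly every tissue before birth. They clear dying cells, assist red cell maturation in the fetal liver and become, among others, the microglia of the brain and the Kupffer cells of the liver. Their survival depends on signalling through CSF1R, and their identity on the transcription factor PU.1, the product of Spi1.

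Of the 10 genes, 8 gave signals above background on both duplicates. They were Csf1r, Csf1, Adgre1, Mrc1, Lyve1, Cd68, Spi1 and Stab1. Aif1 lay at the bound, above it on array 1 and below it on array 2, and Cd163 lay far below it on both. To pass, a gene needed a probe set over the bound on array 1 and one, not always the same, over that on array 2. The bound was the 95th percentile of 81 probe sets for chemosensory receptors (smell, pheromones and bitter taste), taken as silent here. It was 27.9 on array 1 and 33.8 on array 2, where the medians of all probe sets were 32.0 and 35.3. Signals are intensities on a linear scale. The share of 8 in 10 stands beside 65.5% of all genes measured. Since RNA of the whole embryo was labelled, fewer macrophages and less RNA per macrophage cannot be told apart in any of these signals.

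The count depends on how many probe sets a gene has. Csf1r, Csf1 and Lyve1 have more than 1 probe set and all 3 passed, where 82.8% of such genes passed on the array. Of the 7 genes with a single probe set, 5 passed, against 48.6% of all genes with 1 probe set. Taken by probe set, 13 of the 16 were above the bound on both arrays, against 55.6% of all probe sets with 1 symbol. The 7 genes Csf1r, Csf1, Adgre1, Mrc1, Lyve1, Cd68 and Stab1 exceeded the bound more than 2-fold on both arrays, and Spi1 did not. Most genes had such a margin: among all 11925 genes above background, 20.9% fell short of it, as Spi1 did. Of the 16 probe sets, 9 carry a suffix (_a_at, _s_at or _x_at) given to sets whose oligonucleotides match several transcripts, of the same gene or of others. Csf1, Adgre1, Aif1 and Stab1 have no probe set without one.

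**Figure D1:**
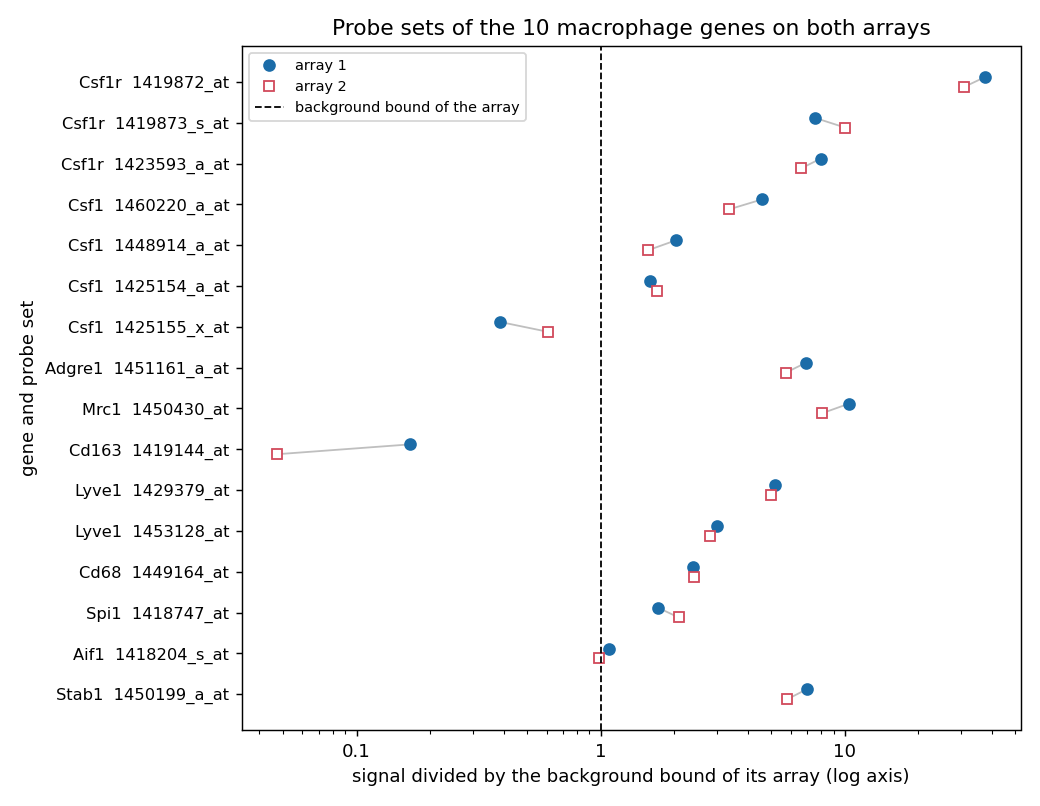
Signal of each of the 16 probe sets of the macrophage genes on array 1 (filled circles) and array 2 (open squares), as a multiple of the bound for the same array (log axis, bound dashed). Of the 16, 13 exceed the bound on both arrays, Aif1 straddles it, and Cd163 and 1 probe set of Csf1 fall short of it.

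Csf1r encodes the receptor tyrosine kinase through which CSF1 and IL34 act on macrophages and their precursors. All 3 of its probe sets were above the bound on both arrays. Probe set 1419872_at gave 1048 on array 1 and 1044 on array 2 (mean 1046 ± 2.97, SD, n = 2), which were 37.6 and 30.9 times the bound. Probe set 1423593_a_at had 222 and 224. Both of these were nearly equal on the 2 arrays, with log2 differences (array 1 minus array 2) of 0.0038 and -0.012, whereas 1419873_s_at had 210 and 340.

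Csf1 encodes the secreted or membrane-bound ligand made by many stromal cells. Of its 4 probe sets 3 passed on both arrays. Probe set 1460220_a_at gave 127.5 on array 1 and 114 on array 2, 1448914_a_at had 56.7 and 53.0, and 1425154_a_at had 44.4 and 57.6. The remaining one, 1425155_x_at, had 10.8 and 20.5 and was below the bound on both arrays; its suffix marks a probe set with oligonucleotides that may hybridise to other transcripts. The probe sets of a gene often disagreed in this way: of the genes with more than 1 probe set and at least 1 of them above background, 35.6% had every probe set above it. Csf1r and Lyve1 belonged to that share and Csf1 did not.

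Spi1 encodes PU.1, the ETS-family transcription factor that macrophages, granulocytes and B cells require. Its probe set read 47.9 on array 1 and 70.6 on array 2 (59.3 ± 16.1, SD, n = 2), or 1.72 and 2.09 times the bound. Among the 8 genes above background it was the one whose lower value stood closest to the bound of its array.

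PU.1 recognises a purine-rich box with the core GAGGAA, and for that reason the 250 bases before the transcription start of members with an entry in the RefSeq promoter table (GRCm38.p6) were searched for GAGGAA or its reverse complement TTCCTC, both strands counted. Of 6 members with an entry, 4 held a match (Mrc1, Cd68, Stab1 and Aif1) and 2 did not (Csf1 and Cd163); of all 32851 windows of that length in the table, 23.3% held one. The window of Mrc1 held 3 matches, and 0.429% of all windows held 3 or more. Those of the 4 genes with a match and of Cd163, the gene below background, are shown 5′ to 3′ along the gene's strand, with the matches in capitals.
Mrc1, chr2:14229164-14229413, plus strand: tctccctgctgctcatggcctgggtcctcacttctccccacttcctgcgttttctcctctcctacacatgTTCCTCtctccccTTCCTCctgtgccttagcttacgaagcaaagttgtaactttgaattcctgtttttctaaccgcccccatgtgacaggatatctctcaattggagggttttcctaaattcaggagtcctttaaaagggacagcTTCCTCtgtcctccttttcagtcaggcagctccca
Cd68, chr11:69666171-69666420, minus strand: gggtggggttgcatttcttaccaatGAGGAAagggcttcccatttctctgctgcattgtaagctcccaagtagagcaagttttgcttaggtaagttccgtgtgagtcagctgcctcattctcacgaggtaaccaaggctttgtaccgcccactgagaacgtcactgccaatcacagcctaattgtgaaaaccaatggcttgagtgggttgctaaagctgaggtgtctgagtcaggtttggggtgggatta
Stab1, chr14:31168642-31168891, minus strand: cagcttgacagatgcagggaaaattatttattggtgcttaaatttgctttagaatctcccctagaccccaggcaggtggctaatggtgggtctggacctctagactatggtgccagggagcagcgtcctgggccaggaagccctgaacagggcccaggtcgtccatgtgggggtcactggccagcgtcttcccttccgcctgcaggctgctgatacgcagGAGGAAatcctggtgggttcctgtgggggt
Aif1, chr17:35176053-35176302, minus strand: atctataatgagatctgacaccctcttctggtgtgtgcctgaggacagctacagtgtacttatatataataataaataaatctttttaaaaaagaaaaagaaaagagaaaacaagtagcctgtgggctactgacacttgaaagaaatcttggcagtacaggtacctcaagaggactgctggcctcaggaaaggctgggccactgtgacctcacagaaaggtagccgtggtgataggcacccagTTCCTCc
Cd163, chr6:124304401-124304650, plus strand: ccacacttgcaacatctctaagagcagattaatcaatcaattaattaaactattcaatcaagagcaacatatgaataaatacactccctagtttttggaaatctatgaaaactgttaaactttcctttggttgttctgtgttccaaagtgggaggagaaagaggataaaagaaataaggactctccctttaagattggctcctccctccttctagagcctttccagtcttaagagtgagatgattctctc

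The matches began 180, 167 and 35 bases before the start of Mrc1, all on the opposite strand, 225 bases before that of Cd68 and 30 before that of Stab1, both on the strand of the gene, and 7 before that of Aif1, on the opposite strand. A match of 6 letters is a description of the sequence and no evidence of binding, and binding was not measured.

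Adgre1 encodes F4/80, the adhesion receptor by which mouse macrophages are most often recognised. Its single probe set read 193 on array 1 and 194 on array 2 (193.7 ± 0.354, SD, n = 2). These values, 6.93 and 5.74 times the bound, differed less than the bounds did. Cd68, which encodes a heavily glycosylated protein of lysosomes and late endosomes, had 66.6 and 81.8, or 2.39 and 2.42 times the bound. Aif1 encodes IBA1, an actin-binding cytoplasmic protein used to stain microglia. Its probe set had 30.3 on array 1 and 33.4 on array 2, which were 1.09 and 0.988 times the bounds of those arrays, so it fell among the 4.73% of all genes that were above background on 1 array only. The signal itself was slightly higher on array 2, where the bound was higher as well.

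The scavenger and endocytic receptors were divided. Mrc1, which encodes the mannose receptor CD206, gave 290.5 on array 1 and 272 on array 2 (281 ± 13.2, SD, n = 2). Stab1, which encodes stabilin-1, a clearance receptor of macrophages and sinusoidal endothelium, had 194.5 and 197 (195.7 ± 1.63, SD, n = 2). Lyve1, which encodes a hyaluronan receptor of lymphatic endothelium and of a class of tissue macrophages, had 145 and 168 at probe set 1429379_at and 83.3 and 94.8 at 1453128_at, all of them above the bound. Cd163, which encodes the receptor that takes up haemoglobin bound to haptoglobin, had 4.60 on array 1 and 1.60 on array 2, or 0.165 and 0.0473 times the bound. These Cd163 signals were also below the median of the receptor probe sets, which was 6.40 and 7.50. Cd163 has 1 probe set here, and how well it responds to its transcript is not known, so a low signal does not show that the transcript was missing.

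Between the duplicates the members differed little, apart from 1 probe set of Csf1r and the probe set of Spi1. Differences are log2 signals of array 1 minus array 2 for probe sets above background on both arrays, centred on the median over all 19434 such probe sets. Over the 8 members above background, each taken at its probe set with the highest mean signal, the median difference was -0.01, beside 0.01 over all genes, and the values ran from -0.56 for Spi1 to 0.16 for Csf1. Of the 8, 3 were higher on array 1 and 5 on array 2. Csf1r, Adgre1 and Stab1 lay at 0.00, -0.01 and -0.02, Mrc1 at 0.09, Lyve1 at -0.22 and Cd68 at -0.30.

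Of the 13 probe sets above background, 1 differed by more than 1.5-fold, as did 3.24% of all such probe sets, with 2.09% over 1.5-fold higher on array 2. It was 1419873_s_at of Csf1r, which was 1.62-fold higher on array 2, a log2 difference of -0.69. Of the 4109 probe sets with a mean signal from 150 to 300, 8 had a difference below that. The other probe sets of Csf1r did not share it. Of the 13, 9 were higher on array 2 and 4 on array 1, with a median difference of -0.02. None of the 13 differed by more than 2-fold, which 0.268% of all probe sets did. Spi1 was 1.48-fold higher on array 2. Its difference of -0.56 lay at the edge of the central 95% of all probe sets (-0.56 to 0.46), but inside that of the 6017 probe sets with a mean signal under 75 (-0.68 to 0.52). There is 1 array on either side of these differences, so no test was made.

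**Figure D2:**
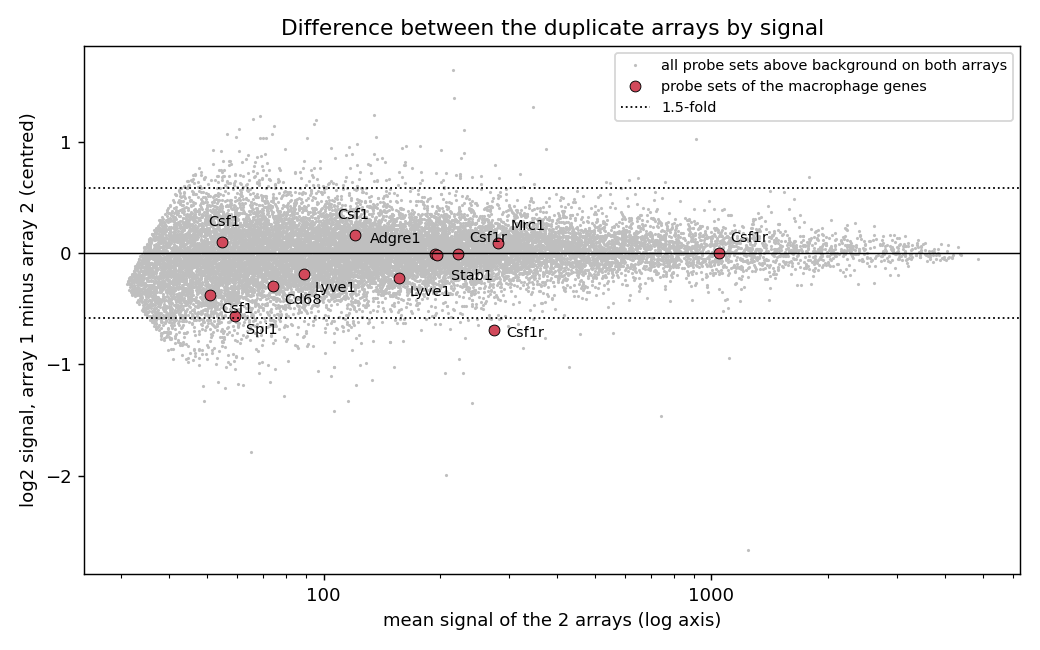
Log2 signal of array 1 minus array 2, centred on the median, against the mean signal of the 2 arrays on a log axis, for the 19434 probe sets above background on both arrays (grey) and the 13 of the macrophage genes (red); dotted lines mark 1.5-fold. A probe set of Csf1r at -0.69 lies beyond the lower line and the others lie inside both lines.

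Genes that act with the members were described by 7 lists, of which 64 of 81 measured genes (79.0%) were above background, with a median difference of -0.06 between the arrays. Of the CSF1 receptor's neighbours, the second ligand gene Il34 did not pass at its 1 probe set, with 22.9 on array 1 and 5.20 on array 2. Csf1 passed through 3 of its 4 probe sets. How well the Il34 probe set responds to its transcript is not known, so the ligand genes are not compared in level. Csf2 and Csf3, ligand genes of granulocyte-macrophage and granulocyte growth, did not pass either, at 1.90 to 13.4. The receptor genes Csf2rb (97.4 and 79.3), Csf2ra (30.0 and 42.9) and Csf3r (28.2 and 41.2) passed, the last pair close to the bound on array 1. Csf2rb and Csf2ra each did so through 1 of 2 probe sets. In all, 3 of 6 genes of this list passed, and 1 did with the 99th percentile as bound.

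Downstream of macrophage receptors, 9 of 10 signalling genes passed, and 6 did where most probe sets of a gene had to pass. Tyrobp, the adaptor gene known as DAP12, gave 254 on array 1 and 241.5 on array 2, its partner receptor gene Trem2 had 38.3 and 46.5, and the kinase gene Syk had 64.0 and 67.3. The adaptor gene Fcer1g (91.2 and 144) and the exchange factor gene Vav1 (53.0 and 79.8) were more than 1.5-fold higher on array 2, at 1.59-fold and 1.51-fold. Syk passed through 1 of 4 probe sets, and Trem2 and Vav1 through 1 of 2. The Src-family kinase gene Fgr passed on array 1 only, at 32.6 on array 1 and 33.6 on array 2. Of 13 transcription factor genes beside Spi1, 10 passed. They included Irf8 (61.7 and 70.5), Irf5 (38.0 and 41.9), Maf (475 and 495) and Runx1 (70.0 and 80.0). Runx1 did so through 1 of 6 probe sets and Irf5 through 1 of 2. Spic, which directs the red-pulp macrophage programme, and Tfec were below the bound on both arrays, and Batf3, a dendritic cell factor, was above it on array 2 only (25.7 and 48.0).

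The measured genes that macrophages use to digest and recycle were all above background where 1 probe set on each array was enough. All 15 measured genes of C1q, the lysosome and the phagocyte oxidase passed. Among them were the complement genes C1qa (148 on array 1 and 161 on array 2), C1qb (448 and 498) and C1qc (148 and 80.4) and the lysozyme gene Lyz1 (665 and 564), which shares much of its sequence with Lyz2. C1qc was 1.84-fold higher on array 1, unlike C1qa and C1qb, which were 1.09-fold and 1.11-fold higher on array 2. All 8 genes of iron and haem recycling passed as well, with the haem oxygenase gene Hmox1 at 66.8 and 56.2, the ferroportin gene Slc40a1 at 391 and 426, Slc11a1 at 88.5 and 92.1 and Slc48a1 at 271 and 286. The counts of these lists were 13 and 6 where most probe sets of a gene had to pass, and the same without suffixed probe sets. Cyba, whose only probe set is suffixed, then had none left. Hepatocytes, red cells and stromal cells express some of these genes too.

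Surface receptors were more mixed. Of 14 genes of general myeloid surface proteins 10 passed. Among them were the leukocyte phosphatase gene Ptprc (53.7 on array 1 and 60.7 on array 2) and the integrin gene Itgb2 (56.0 and 48.0). So was the fractalkine receptor gene Cx3cr1 (89.7 and 74.8). Ptprc and Cx3cr1 passed through 1 of 2 probe sets. Itgam, whose product CD11b pairs with that of Itgb2, did not pass at 12.6 and 11.6, and neither did the Toll-like receptor genes Tlr4 (24.1 and 22.5) and Tlr7 (18.9 and 20.8). Cd14 was above the bound on array 1 only (40.4 and 23.5). Of 15 scavenger and dead-cell receptor genes 9 passed, including Msr1 (34.0 and 39.6), Cd36 (63.7 and 58.5) and Scarb1 (298 and 376). Msr1 passed through 1 of 4 probe sets and Cd36 through 1 of 3. Marco was above the bound on array 1 only (36.5 and 5.80). The Stab1 relative Stab2 had 75.5 and 83.7. With Cd163, the genes Timd4, Vsig4, Clec4f, Siglec1 and Havcr2, which encode surface receptors of resident macrophages or, for Havcr2, also of lymphocytes and were singled out after their values were seen, as was Stab2, had no probe set above the bound on either array. At the probe set with the highest mean of each, their signals ran from 8.0 to 26.0. Further genes of the same list passed, and are named after their values were seen too. They included Cd5l (404 and 364), Axl (190 and 186), Gas6 (117 and 124), Mertk (61.3 and 68.8) and Folr2 (58.5 and 45.7). Axl and Gas6 did so through 1 of 2 probe sets.

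Of the cell types that arise from or beside macrophages, 4 of 7 microglia genes passed. They were Tmem119 (323 on array 1 and 315 on array 2), Olfml3 (473 and 416), Sall1 (97.0 and 105.6) and P2ry13 (36.5 and 36.3). Other embryonic tissues also express Tmem119 and Olfml3, and which cells gave the Sall1 signal was not measured. Sall1 passed through 1 of 2 probe sets. P2ry13 lay close to the bound, at 1.31 and 1.07 times it. P2ry12 (17.8 and 16.2) and Gpr34 (8.80 and 16.5) did not pass, and Siglech was above the bound on array 1 only (28.1 and 8.70). Of 9 osteoclast genes, which mark a cell that also depends on Csf1r, 3 passed: Acp5 (289.5 and 285), Ctsk (124.5 and 140) and Mmp9 (125 and 131). Calcr and Ocstamp were among those below the bound.

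Several members are not confined to macrophages, and markers of other cells were above background in the same RNA. Lyve1, Stab1 and Mrc1 are also genes of lymphatic and sinusoidal endothelium, of whose list 6 of 8 genes passed. Among these were Flt4 (173 on array 1 and 208.5 on array 2), Pdpn (524.5 and 542) and Reln (761 and 602). Reln passed through 1 of 2 probe sets. Prox1 (20.9 and 19.6), with none of its 3 probe sets above the bound, and Clec4g did not pass. Which cells of the embryo these transcripts came from was not measured. Of the blood vascular list 10 of 10 genes passed (6 where most probe sets of a gene had to pass), including Pecam1 (52.2 and 38.8), Cdh5 (66.8 and 62.1), Kdr (180 and 167) and Tek (104 and 120.4). Spi1, Cd68 and Csf3r are also active in granulocytes, and all 9 genes of neutrophils and their precursors passed, among them Elane (151 and 177), Mpo (879 and 953), Prtn3 (185 and 270) and Ctsg (109 and 122). S100a8 was 1.56-fold higher on array 1 (923 and 592). The part of these cells in the signals of the members was not tested.

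Lymphocyte genes passed in 2 of 10 cases, and the T cell genes Cd3e, Cd3g, Cd3d and Cd4 had signals from 3.80 to 16.6. The pair above background was Ighm (103 on array 1 and 143 on array 2) and Cd8a (61.4 and 109, 1.78-fold higher on array 2), each through a minority of its probe sets, and Pax5 passed on array 1 only. Of 9 antigen-presentation genes 4 passed, all of them of the class II pathway: H2-Aa (47.0 and 55.7), H2-Ab1 (36.1 and 53.1), H2-Eb1 (55.1 and 44.4) and Cd74 (81.0 and 78.2). H2-Aa passed through 1 of 4 probe sets and H2-Ab1 through 1 of 3, in both cases a suffixed one. Itgax, Xcr1, Cd209a and Ciita were below the bound on both arrays and Flt3 on array 2. Mast cell genes passed in 3 of 7 cases, Cpa3 (143.5 and 131), Cma1 (142 and 134) and Hdc (51.5 and 48.4), with Tpsb2 above the bound on array 1 only and Mcpt4 on neither. Megakaryocyte genes passed in 5 of 7, with Pf4, which fetal macrophages can also express, at 760 and 714, Itga2b at 136.5 and 125 and Gp1bb 1.63-fold higher on array 2 (85.5 and 139), whereas Gp9 and Gp6 passed on array 1 only. All 8 erythroid genes passed, including Hbb-y (3947 and 4118), Alas2 (1989 and 1975), Hbb-bh1 (552 and 576) and Klf1 (986.5 and 873), and 0 of 17 genes taken as silent (of sperm, photoreceptors and milk) did. The counts for transcription factors, surface proteins and scavenger receptors were 5 each, for lymphocytes 0 and for antigen presentation 2 where most probe sets of a gene had to pass. Without suffixed probe sets those for lymphocytes were 0, for antigen presentation 1, for mast cells 1 and for erythroid cells 5. Cd74, Cma1 and Alas2, each with 1 probe set that is suffixed, then had none left. Each of the list counts stands beside the 65.5% of all genes, and nothing in them ties a member's transcript to a given cell.

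**Figure D3:**
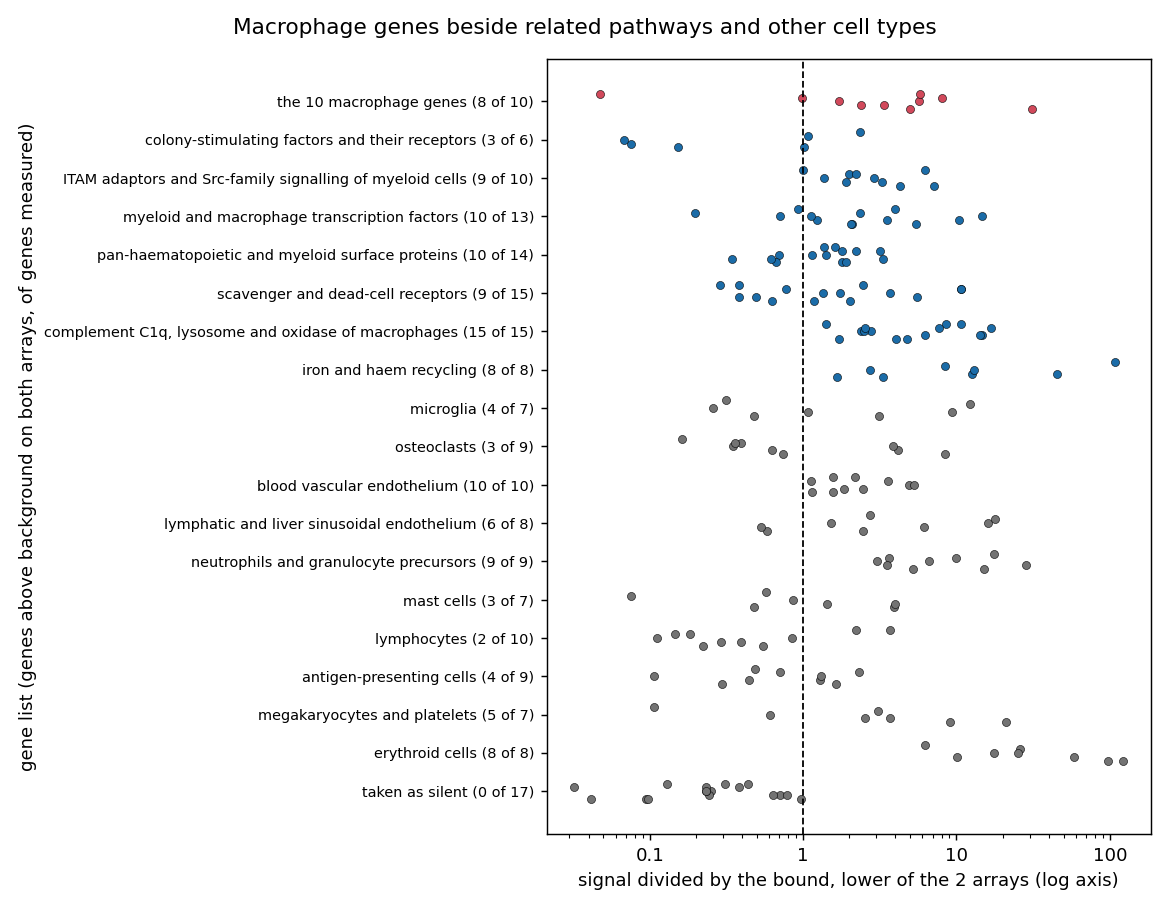
Each point is a gene, placed by its signal divided by the background bound on the array where that ratio was lower (log axis, with the highest probe set of the gene on each array), for the 10 macrophage genes (red), 7 related pathway lists (blue) and 10 lists of other cell types with the genes taken as silent (grey). The labels count the genes to the right of the dashed bound: 8 of 10 for the macrophage genes, 15 of 15 for the list of C1q, lysosome and oxidase genes, and 2 of 10 for the lymphocyte genes.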

How the data were processed

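Total RNA was labelled with biotin and hybridised to 2 Affymetrix mouse arrays. The deposited values are signal intensities, 1 per probe set and array on a linear scale, which the authors made with GCOS 1.3 according to the submitters' processing notes; both arrays had a mean of 100 after trimming of 2% at each end. The detection calls used in the study were not used here, and a signal bound took their place. The algorithm settings are not given in the sources used here.

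Probe sets (45101) were named through the array annotation, with symbols updated by gene identifier in RefSeq (GRCm38.p6). Of them, 932 with several symbols and 9211 not listed named no gene. Members and lists were chosen with earlier results of these data known, and of each list the text names the first 4 measured genes, the genes on the minority side of the bound where there are 5 or fewer, and those beyond 1.5-fold between the arrays; others were named after their values were seen. Of 88 genes in the pathway lists and 90 in the cell type lists, 81 and 84 were measured; the others were not analysed here. A gene's values are those of its probe set with the highest mean signal, unless the probe set is named. No p-value was computed. The steps were tested on simulated arrays. The alternatives were other bounds (90th and 99th percentile, the array median, the genes taken as silent) and other rules for a gene. Others were removal of suffixed probe sets and single arrays. Those for differences included other normalizations, no filter with a pseudocount of 16, and the mean over probe sets. The work used numpy 2.4.6 and pandas 2.3.3 in Python 3.11.15, with statsmodels 0.14.6 for loess, scipy 1.17.1 for trimmed means and matplotlib 3.10.9 for plots.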

Additional observations from a re-analysis of the deposited data

How the results depend on the processing

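Of 10 members, 8 or 9 were above background in 8 of 9 alternatives, and the same 8 genes passed in each of these. Aif1 was the gene that joined them: with the 90th percentile bound, with the bound from the genes taken as silent, and on array 1 alone, where its signal was 1.16, 1.13 and 1.09 times the bound. Cd163 stayed below the bound in all 9. With either array alone, 8 to 9 members and 13 to 14 of their probe sets were above it. Probe sets with a suffix (_s_at, _x_at or _a_at) match several transcripts, of the same gene or of others. Without them, 5 members and 6 of their probe sets passed, since Csf1, Adgre1, Aif1 and Stab1 then have none left. With either array alone, 12157 to 12553 of all genes passed. The median difference over the members moved to -0.22 with removal of the suffixed probe sets, where 5 genes are left. In the other 6 alternatives it lay between -0.12 and 0.01, with -0.12 for the mean over all probe sets of a gene. The SD of a single log2 signal between the duplicates was 0.18, which does not measure the spread of a median. The number of all genes beyond 1.5-fold was 652, against 324, when no filter was applied and 16 was added to each signal. Taking the mean over probe sets moved Csf1r to -0.23 and Csf1 to -0.04. Of 162 list counts under the alternatives, 147 were within 1.5 times those reported. When most of a gene's probe sets had to pass, which asks more of genes with many probe sets, the counts of 14 lists fell, 7 of them by more than 1.5 times: colony-stimulating factors and receptors to 1, transcription factors, surface proteins and scavenger receptors to 5 each, blood vascular genes to 6, antigen-presenting genes to 2 and lymphocyte genes to 0. Without the suffixed probe sets 13 lists fell, 4 of them by that much: mast cell genes to 1, lymphocyte genes to 0, antigen-presenting genes to 1 and erythroid genes to 5. These falls include genes left with no probe set, such as Cma1, Cd74 and Alas2, which did not fail at another one. The colony-stimulating factor list also fell to 1 with the 99th percentile and the array median as bound, and 1 gene taken as silent passed with the 90th percentile and with the bound from those genes. A pair of arrays of 1 condition limits every value, and signals near the bound, such as those of Aif1 and Spi1, are the least certain.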
